A study of Homo sapiens with 6 samples.

Results

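The genes described here encode enzymes of the tricarboxylic acid (TCA) cycle and of mitochondrial fatty acid oxidation. They were chosen by name, with earlier results of these data known, as 37 genes among the 58174 gene identifiers of the deposited expression table. Each of the 37 was found. Of these, 17 belong to the TCA cycle and the reactions that feed it, and 20 to the activation, import and oxidation of fatty acids. Their transcript levels were compared between AGS cells with and without depletion of FTO, an RNA demethylase that removes methyl groups from N6-methyladenosine.

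AGS is an established cell line from a human gastric adenocarcinoma. Total RNA was sequenced from 3 libraries of cells that received a control siRNA (si-NC) and from 3 that received an siRNA against FTO (si-FTO), both delivered by lipofection. The genotype label, however, reads FTO-/- for the si-FTO libraries and wild type for the others, which differs from a knockdown by siRNA, and the groups are called here by their titles. The deposited values are TPM, which give each gene's share of all transcripts, corrected for gene length and brought to a fixed total, with 1 mean per group. The authors' means sum to 999970 TPM in si-NC against 999957 TPM in si-FTO. TPM keeps no read number, so the depth is unknown, and the group means carry no error between libraries, so that no test of any difference could be run. All differences below are therefore descriptions of a pair of group means, and nothing in the labels says whether the libraries came from separate cultures.

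FTO itself had 33.1 TPM in si-NC against 7.27 TPM in si-FTO, 4.56-fold lower, which goes the way the group names say. The cell type label was checked against markers of epithelial cells, and several of its defining markers were at or near 0. EPCAM, the epithelial adhesion molecule, stood at 1.22 TPM in si-NC against 0.113 TPM in si-FTO. KRT19, an epithelial keratin, was listed at 0 in si-NC and reached 0.130 TPM in si-FTO. The epithelial splicing factor ESRP1 had 0.0830 TPM in si-NC and the transcription factor GRHL2 had 0.00370 TPM, and both were listed at 0 in si-FTO. Apart from EPCAM in si-NC, these markers were thus under 0.5 TPM in both groups. CDH1, which encodes E-cadherin, had 3.67 TPM in si-NC against 0.685 TPM in si-FTO.

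The same list also set the groups far apart. Its 19 markers summed to 146 TPM in si-NC against 5471 TPM in si-FTO, with 8 markers under 1 TPM in si-NC and 6 in si-FTO. KRT8, a keratin of simple epithelia, was the most abundant of them in si-FTO at 3139 TPM, against 10.8 TPM in si-NC. KRT18, its partner keratin, had 52.1 TPM in si-NC against 1851 TPM in si-FTO. KRT7 was listed at 0 in si-NC and had 253 TPM in si-FTO. These keratins, unlike KRT19, were thus far more abundant in si-FTO. Of the 15 markers compared, 3 were lower by 2-fold and 10 higher once 1 TPM was added to each mean, a scale on which EPCAM falls just short. In shares, 20% were lower and 66.7% higher, against 17% and 11.4% of all genes with at least 0.5 TPM in a group. The lower markers were CDH1, GATA6 and SPINT2. GATA6, a transcription factor of gastric epithelium, had 20.3 TPM in si-NC against 2.54 TPM in si-FTO. SPINT2, an inhibitor of epithelial proteases, had 38.2 and 7.99 TPM. Among the higher ones, the epithelial transcription factor ELF3 had 0.115 TPM in si-NC against 93.3 TPM in si-FTO, KLF5 had 12.4 and 43.8 TPM, and the mucin gene MUC1 had 1.71 and 31.0 TPM. ESRP2, the paralog of ESRP1, had 2.44 and 25.99 TPM, and the claudin gene CLDN7 had 1.17 and 14.8 TPM. The list was therefore mixed, with some defining markers missing and others present, mostly in si-FTO.

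Markers of other cell types also differed between the groups. The 4 leukocyte markers summed to 3.29 TPM in si-NC against 1.02 TPM in si-FTO, with PTPRC, the pan-leukocyte marker, listed at 0 in both groups. Of 3 endothelial markers, 2 were found. CDH5, which encodes VE-cadherin, had 0.00827 TPM in si-NC against 40.9 TPM in si-FTO, whereas VWF, the von Willebrand factor, had 0.00493 and 0.0537 TPM. The 5 fibroblast markers summed to 13.8 TPM in si-NC against 45.1 TPM in si-FTO, led by the collagen gene COL1A1 with 10.3 and 36.4 TPM, while its partner COL1A2 had 0.00982 TPM in si-NC and was listed at 0 in si-FTO. These differences move with the group and with every difference described for the enzymes, and their part in the results was not tested. In a bulk sample, fewer cells of a type and less RNA per cell cannot be told apart. Whether both groups hold the same cells cannot be told from the group means either, so each ratio below compares the groups as labelled.

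The TCA cycle runs in the mitochondrial matrix, where acetyl-CoA is joined to oxaloacetate and oxidised step by step, and the electrons released pass to the respiratory chain. Fatty acids reach the same acetyl-CoA pool by another route: they are activated to acyl-CoA, carried into the matrix by the carnitine shuttle and shortened in repeated rounds of dehydrogenation, hydration, oxidation and thiolysis. The epithelium of the stomach holds acid-secreting parietal cells that are rich in mitochondria, whereas proliferating cancer cells also use the cycle as a source of building blocks.

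Upstream sequences were taken for the members with at least 10 TPM that differed most between the groups, and for the pair of genes that share a promoter, to show what precedes these genes. The RefSeq promoter table, on GRCh38.p14, matched 34 of the 37 members. OGDH, ETFDH and DECR1 were the others. Its windows run from 250 bases before a start of transcription to 50 bases into the transcript. Each line below gives the bases upstream of the start, 5′ to 3′, with the GC box (GGGCGG, or CCGCCC where it lies on the other strand) in capitals. ME2 is shown for chr18:50878998-50879117 on the plus strand, CPT1A for chr11:68844278-68844397 on the minus strand, and ACADVL for chr17:7219818-7219937 on the plus strand, each over 120 bases that end at the base before the start. ACADVL has 2 windows in the table, and the downstream one is shown. HADHA and HADHB are shown for the stretch of 194 bases that both upstream windows share, chr2:26244689-26244882, written on the plus strand.
ME2: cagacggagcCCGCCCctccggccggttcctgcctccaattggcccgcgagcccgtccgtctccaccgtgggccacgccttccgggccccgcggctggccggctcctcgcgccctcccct
CPT1A: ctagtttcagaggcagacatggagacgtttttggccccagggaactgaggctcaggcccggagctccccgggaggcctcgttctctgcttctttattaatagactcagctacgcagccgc
ACADVL: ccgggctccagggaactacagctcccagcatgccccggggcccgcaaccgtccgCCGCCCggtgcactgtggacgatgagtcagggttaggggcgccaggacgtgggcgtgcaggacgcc
HADHA and HADHB: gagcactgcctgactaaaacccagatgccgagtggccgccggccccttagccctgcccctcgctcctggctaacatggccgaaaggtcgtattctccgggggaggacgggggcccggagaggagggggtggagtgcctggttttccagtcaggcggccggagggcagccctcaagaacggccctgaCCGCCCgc

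The stretches of ME2, ACADVL and the HADHA and HADHB pair each hold 1 GC box, and that of CPT1A holds 0. G and C make up 78.3% of the bases shown for ME2, 72.5% for ACADVL, 68.6% for HADHA and HADHB and 57.5% for CPT1A. Over the whole windows and both strands, the GC box was found in 24 of the 34 members, against 79.2% of the 8348 matched genes with at least 10 TPM in a group, 48.3% of all 27305 genes and 45.0% of all 35116 windows. The other 3 motifs searched, also on both strands, were rare among the members. GCATGCGC, the core of the site of NRF1, was found in 1 member, DLD, in 6.86% of the genes with at least 10 TPM and in 3.05% of all windows. TCAAGGTCA, a site of estrogen-related receptors, was found in 0 members, 0.276% of those genes and 0.353% of all windows. TGACGTCA, the cAMP response element, was found in 0 members, 4.18% of those genes and 1.85% of all windows. A motif match is a description of these letters and not of binding.

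Each difference is given as a log2 ratio, si-FTO over si-NC, of the mean TPM values after 1 TPM was added to both, a scale that understates the differences of low genes. Limits of 2-fold and 1.5-fold, and all counts of genes past them, are on that scale too, so that genes of few TPM can stay within a limit that their plain ratio passes. Where a gene is said to be so many fold higher or lower, the number is the plain ratio of its means. The comparison took genes whose mean reached 0.5 TPM in a group, which kept 20493 genes and all 37 members, ACSL5 only through its si-FTO value and ME2 only through its si-NC value. In a narrower set of 10785 genes with at least 10 TPM in a group, 36 members were kept.

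By a 2-fold limit, 1 member was lower in si-FTO, or 2.70% of the 37, against 17% of all genes compared and 15% of those with at least 10 TPM. Higher by 2-fold were 5 members, or 13.5%, against 11.4% and 13.3% of the same sets of genes. The lower member was ME2, and the higher ones were OGDH, CPT1A, ACADVL, ACSL4 and ACSL5. By a 1.5-fold limit, 5 members were lower, or 13.5%, against 31.2% and 28.3%. Higher by 1.5-fold were 9 members, or 24.3%, against 18.8% and 20%. The smaller limit added IDH3G, MDH2, GLUD1 and ETFDH to the lower members and CS, ACSL1, ACSL3 and DECR1 to the higher ones. The members thus held smaller shares of lower genes than the background and shares of higher genes close to it or slightly above, while 23 of 37 stayed within 1.5-fold. The median log2 ratio of the members was 0.11, with 15 below 0 and 22 above.

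The table as a whole leaned towards si-NC, with a median log2 ratio of -0.20 over the genes compared, and median-ratio scaling removes a shift of -0.21 between the groups. After that scaling, 2 members were lower by 1.5-fold (5.41%) and 14 higher (37.8%). The background was 25.6% lower and 23.7% higher over all genes compared, and 20.8% and 26.2% over those with at least 10 TPM. By this limit the members thus held a larger share of higher genes than either background and a smaller share of lower ones. Among the lists below, glycolysis then had 1 gene lower and 6 higher of 17. The other fatty acid oxidation genes had 10 lower and 7 higher of 30. A lean towards higher genes was thus not particular to the members. The 2-fold counts of the members were then 1 and 5 (2.70% and 13.5%). The background was 14.5% lower and 13.9% higher, or 11.6% and 16.0% over the genes with at least 10 TPM. The share of members higher by 2-fold was thus close to that of all genes. The scaling brought IDH1, FH, HADHA, ACAA2 and ETFB past 1.5-fold and IDH3G, MDH2 and GLUD1 within it. The median of the members was then 0.31, with 12 below 0 and 25 above. IDH3A, SUCLA2 and ETFA are the members whose sign turned, to 0.01, 0.13 and 0.02.

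**Figure D1:**
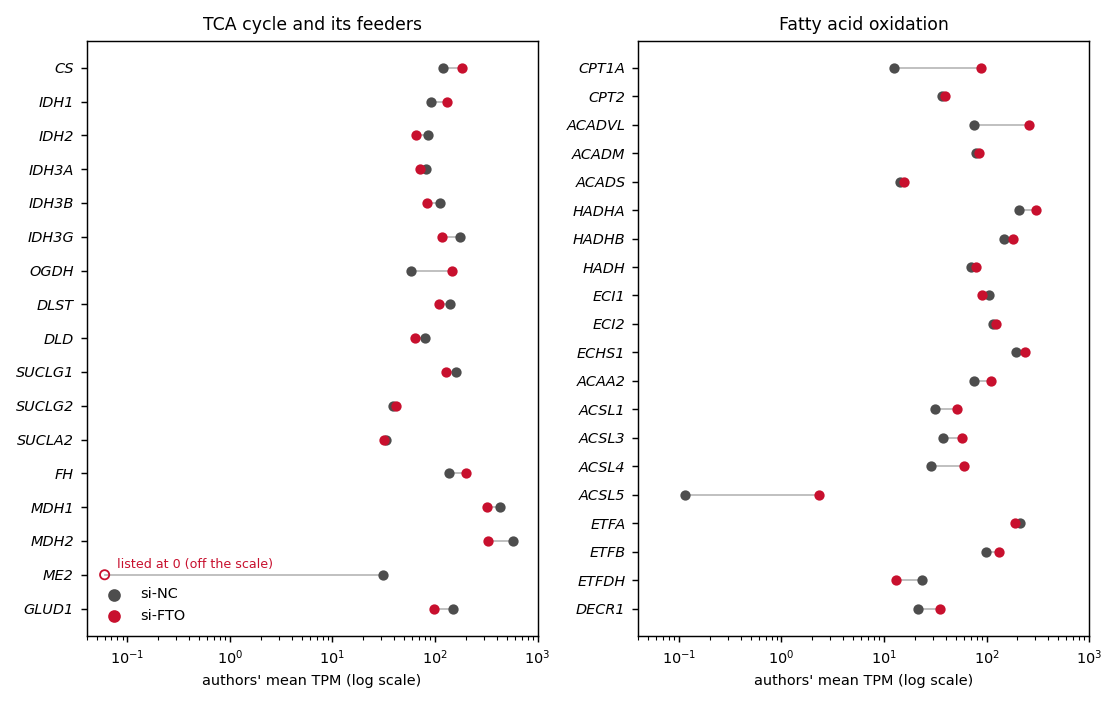
Authors' mean TPM on a log axis for the 17 members of the TCA cycle and the 20 of fatty acid oxidation, with si-NC in grey and si-FTO in red and a line joining the means of a gene. ME2 has 31.0 TPM in si-NC and is listed at 0 in si-FTO, drawn as an open circle off the scale, and CPT1A has 12.5 and 88.2 TPM.

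The members of these pathways differed in their balance. Of the 17 TCA cycle members, 12 had a log2 ratio below 0 and 5 above, with a median of -0.32, and of the 20 fatty acid oxidation members, 3 were below 0 and 17 above, with a median of 0.36. After median-ratio scaling, the medians were -0.11 and 0.57. The part of the choice of members in this split was not tested. The other genes of these pathways, taken as lists below, were not split in this way. Their medians were -0.29 for 24 genes of the TCA cycle and its entry points and -0.33 for 30 fatty acid oxidation genes (-0.08 and -0.13 after scaling). By 1.5-fold, 4 TCA cycle members were lower and 2 higher, and 1 fatty acid oxidation member was lower and 7 higher. In shares, 23.5% of the TCA cycle members were lower and 11.8% higher, and 5% of the fatty acid oxidation members were lower and 35% higher, against 31.2% lower and 18.8% higher of all genes compared. On the deposited scale the TCA cycle members held smaller shares than the background in both directions, and the median of all genes was -0.20. After scaling, the counts were 1 and 4 for the TCA cycle (5.88% and 23.5%) and 1 and 10 for fatty acid oxidation (5% and 50%), against 25.6% lower and 23.7% higher of all genes, so the excess of lower over higher TCA cycle members turned with the scaling.

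In summed level, the TCA cycle members made up 2498 TPM in si-NC against 2126 TPM in si-FTO, or 0.250% and 0.213% of all transcripts. The log2 ratio of these sums was -0.23, and -0.02 after median-ratio scaling. Without MDH2, the most abundant member, it was -0.10. The fatty acid oxidation members summed to 1587 TPM in si-NC against 2149 TPM in si-FTO, or 0.159% and 0.215%, a log2 ratio of 0.44 that became 0.65 after scaling. The fatty acid oxidation members were thus the smaller pool in si-NC and about as large as the pool of TCA cycle members in si-FTO.

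**Figure D2:**
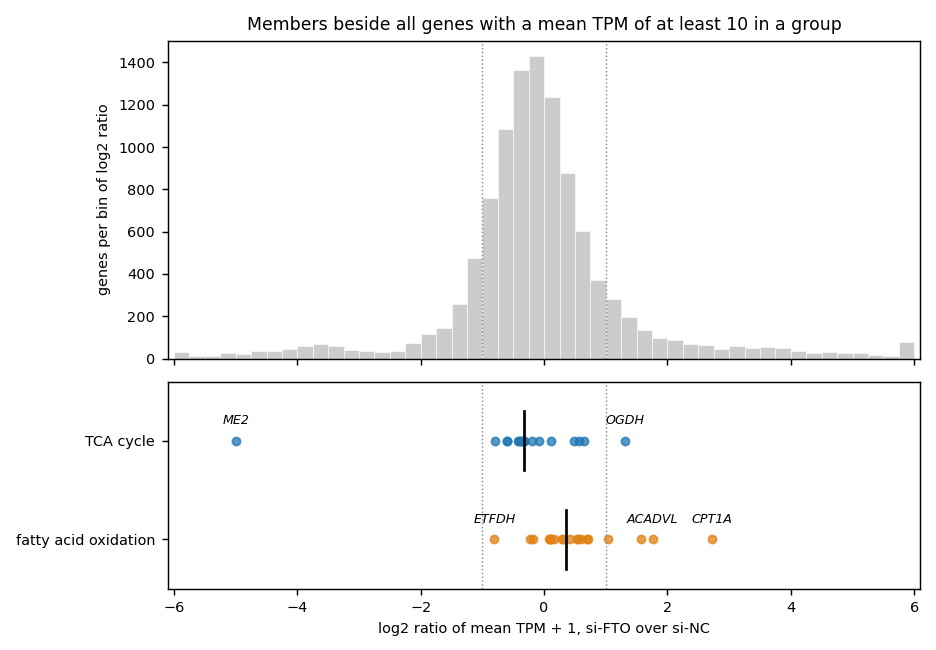
Log2 ratio of mean TPM plus 1 in si-FTO over si-NC, as a histogram of 10785 genes with at least 10 TPM in a group (the end bins also hold genes beyond them) and as 1 point for each member, with black bars at the medians and dotted lines at 2-fold. The median is -0.32 for the 17 TCA cycle members and 0.36 for the 20 fatty acid oxidation members.

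The cycle opens with citrate synthase, which joins acetyl-CoA to oxaloacetate. CS had 118 TPM in si-NC against 185 TPM in si-FTO (log2 ratio 0.64). CS and OGDH were the TCA cycle members higher by 1.5-fold, joined by IDH1 and FH after median-ratio scaling, whereas quantile normalization put CS at 0.56, just within that limit.

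Isocitrate dehydrogenases oxidise isocitrate to 2-oxoglutarate, the NAD-dependent enzyme as an assembly of IDH3A, IDH3B and IDH3G and the NADP-dependent ones as IDH1 in the cytosol and IDH2 in the mitochondria. IDH1 had 92.4 TPM in si-NC against 129.9 TPM in si-FTO (log2 ratio 0.49). IDH2 had 84.7 and 65.3 TPM (-0.37). The ratio of IDH1 to IDH2, which no constant factor per group can alter, was 1.09 in si-NC against 1.99 in si-FTO.

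The subunits of the NAD-dependent enzyme were lower in si-FTO to different degrees. IDH3A, the catalytic subunit, had 81.5 TPM in si-NC against 70.9 TPM in si-FTO (log2 ratio -0.20). IDH3B had 112 and 83.3 TPM (-0.42). IDH3G had 177 and 116 TPM (-0.60, and -0.39 after scaling). IDH3A was the scarcest of these subunits in each group, and its ratio to IDH3G went from 0.461 to 0.609.

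The 2-oxoglutarate dehydrogenase complex makes succinyl-CoA and is built from a decarboxylating dehydrogenase (OGDH), a succinyltransferase core (DLST) and dihydrolipoamide dehydrogenase (DLD). OGDH, ENSG00000105953, at chr7:44646171-44748665 on the plus strand of GRCh37, had 58.9 TPM in si-NC against 147 TPM in si-FTO, 2.50-fold higher. Its log2 ratio of 1.31 was matched or passed in size by 20.1% of the genes with at least 10 TPM. The 50 nearest such genes on its chromosome had a median log2 ratio of -0.14.

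The other components of the complex did not share the higher level of OGDH. DLST had 139.9 TPM in si-NC against 109 TPM in si-FTO (log2 ratio -0.35). DLD, which also serves the pyruvate dehydrogenase complex, had 80.6 and 64.4 TPM (-0.32). The ratio of OGDH to DLST was therefore 0.421 in si-NC and 1.35 in si-FTO, 3.20-fold higher.

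OGDHL, a paralog of OGDH, was the reverse of it. OGDHL had 22.4 TPM in si-NC against 4.87 TPM in si-FTO, 4.60-fold lower. OGDH thus made up 72.5% of the sum of this pair in si-NC and 96.8% in si-FTO, while the sum went from 81.3 to 152 TPM.

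Succinyl-CoA synthetase couples succinyl-CoA to GTP or ATP through a shared alpha subunit (SUCLG1) and alternative beta subunits, SUCLG2 for GTP and SUCLA2 for ATP. SUCLG1 had 160.0 TPM in si-NC against 128 TPM in si-FTO (log2 ratio -0.32). SUCLG2 had 38.9 and 42.0 TPM (0.11). SUCLA2 had 33.4 and 31.6 TPM (-0.08). In each group the alpha subunit was more abundant than both beta subunits together, and the ratio of SUCLG2 to SUCLA2 was 1.17 in si-NC against 1.33 in si-FTO.

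The last steps turn fumarate to malate and malate to oxaloacetate. FH, fumarate hydratase, had 136 TPM in si-NC against 201 TPM in si-FTO (log2 ratio 0.56), although the median log2 ratio of its 50 neighbours was -0.80. MDH2, the mitochondrial malate dehydrogenase, had 572 and 329.7 TPM (-0.79, and -0.58 after scaling) and was the most abundant TCA cycle member in each group. MDH1, its cytosolic counterpart in the malate-aspartate shuttle, had 431 and 323 TPM (-0.41). The ratio of MDH1 to MDH2 was 0.754 in si-NC against 0.981 in si-FTO, so the isozymes were nearly level in si-FTO.

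GLUD1 encodes glutamate dehydrogenase, which feeds glutamate carbon into the cycle as 2-oxoglutarate. GLUD1 had 151 TPM in si-NC against 98.7 TPM in si-FTO (log2 ratio -0.61). GLUD2, a nearly identical copy, had 2.27 and 0.649 TPM, and since reads can be split between such copies the separate values are uncertain.

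ME2 encodes the mitochondrial NAD-dependent malic enzyme, which turns malate to pyruvate, and it gave the largest difference of all 37 members. ME2, ENSG00000082212, at chr18:48405450-48480627 on the plus strand of GRCh37, had 31.0 TPM in si-NC and was listed at 0 in si-FTO. No fold can be given against 0. On the scale with 1 TPM added, its log2 ratio was -5.00, and 2.0% of the genes with at least 10 TPM had a ratio as large in size. Such a value was uncommon but not confined to ME2: 177 of 9655 genes with at least 10 TPM in si-NC stood at 0 in the si-FTO column, and 65 of 9280 genes the other way round.

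The genes next to ME2 were listed at 0 in si-FTO as well. In chromosomal order, 7 adjacent protein-coding genes were at 0 there, and 6 of them had at least 0.5 TPM in si-NC, over a stretch of 423 kb from chr18:48321490-48744703 in GRCh37. SMAD4, a transducer of TGF-beta signals that starts 149 kb after ME2, had 12.7 TPM in si-NC. MEX3C, an RNA-binding ubiquitin ligase, had 9.86 TPM, and ELAC1, a tRNA-processing enzyme, had 3.85 TPM. These neighbours were picked out after their values were seen. MRO, which lies before ME2, had 0.524 TPM, and an unnamed gene, ENSG00000267699, had 0.627 TPM and overlaps both ELAC1 and SMAD4. DCC, the last gene of the run, was listed at 0 in each group.

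Transcripts were present on both sides of this run in si-FTO. Towards the left, MAPK4 had 2.47 TPM in si-NC against 0.0132 TPM in si-FTO, and SKA1, a kinetochore gene, had 15.3 and 7.71 TPM. On the right, MBD2, which binds methylated DNA, had 16.1 and 16.5 TPM. ACAA2, another of the members, lies on the minus strand, with its lower coordinate 1097 kb before the start of ME2, and had 75.6 and 110.4 TPM. Among the 50 nearest genes with at least 10 TPM, the median log2 ratio around ME2 was -0.72, and the part of these neighbours in the value of ME2 was not tested.

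**Figure D3:**
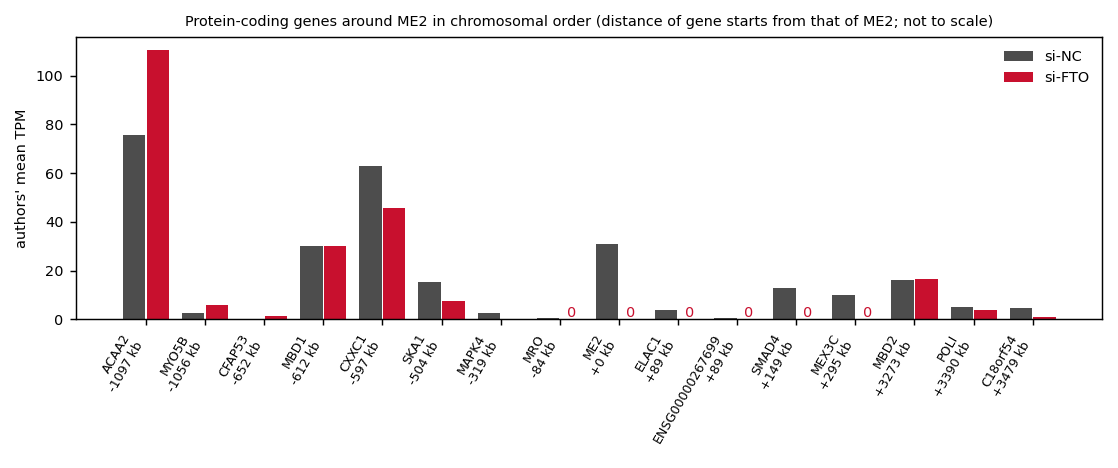
Authors' mean TPM of the protein-coding genes around ME2 with at least 0.5 TPM in a group, in chromosomal order, with si-NC in grey and si-FTO in red. Distances, in kb, are those of each gene's lower coordinate from the start of ME2, whichever the gene's strand. A red 0 marks the 6 genes listed at 0 in si-FTO, from MRO to MEX3C, with SKA1 at 7.71 TPM and MBD2 at 16.5 TPM among those outside them.

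The malic enzyme family as a whole had a different make-up in each group, a family chosen for description after its values were seen. ME1, the cytosolic NADP-dependent enzyme, had 25.5 TPM in si-NC against 41.3 TPM in si-FTO. ME3, the mitochondrial NADP-dependent enzyme, had 0.0596 and 34.0 TPM. Their sum with ME2 was 56.6 TPM in si-NC against 75.4 TPM in si-FTO. ME2 made up 54.8% of the sum in si-NC, and ME3 made up 0.105% of it in si-NC and 45.2% in si-FTO. The main transcript of a mitochondrial malic enzyme was thus ME2 in si-NC and ME3 in si-FTO.

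Long-chain fatty acids enter oxidation after activation by acyl-CoA synthetases, and all 4 synthetases among the members were higher in si-FTO under each scaling tried. ACSL1 had 31.6 TPM in si-NC against 51.6 TPM in si-FTO (log2 ratio 0.69). ACSL3 had 37.4 and 57.3 TPM (0.60). ACSL4, which prefers polyunsaturated fatty acids, had 28.9 and 60.1 TPM (1.03, or 2.08-fold higher). ACSL5 had 0.114 and 2.30 TPM (1.57) and was the least abundant member in both groups except for ME2 in si-FTO.

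Their sum was 98.0 TPM in si-NC against 171 TPM in si-FTO. ACSL3 held the largest share in si-NC at 38.1% and ACSL4 in si-FTO at 35.1%, compared with 29.5% in si-NC. The share of ACSL1 was 32.3% in si-NC against 30.1% in si-FTO, and that of ACSL5 was 0.116% in si-NC against 1.34% in si-FTO. ACSL6, a synthetase outside the members, had 3.35 TPM in si-NC and was listed at 0 in si-FTO.

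Carnitine palmitoyltransferases serve the carnitine shuttle that brings the acyl chain into the matrix. CPT1A, in the outer membrane, is the step at which malonyl-CoA limits entry. CPT1A, ENSG00000110090, at chr11:68522088-68611878 on the minus strand of GRCh37, had 12.5 TPM in si-NC against 88.2 TPM in si-FTO, 7.05-fold higher. Its log2 ratio of 2.72 was the highest of the 37 members and was matched or passed in size by 9.22% of the genes with at least 10 TPM. The median of its 50 neighbours was 0.30. CPT2, the partner enzyme of the inner membrane, had 37.2 and 39.8 TPM (0.09).

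The other isoforms of the outer membrane enzyme were lower in si-FTO. CPT1B, the muscle isoform, had 25.8 TPM in si-NC against 9.55 TPM in si-FTO, 2.70-fold lower. CPT1C, the brain isoform, had 23.9 and 13.2 TPM. CPT1A thus made up 20.1% of the CPT1 transcripts in si-NC and 79.5% in si-FTO, while the sum went from 62.2 to 111 TPM. The most abundant CPT1 transcript was CPT1B in si-NC and CPT1A in si-FTO.

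**Figure D4:**
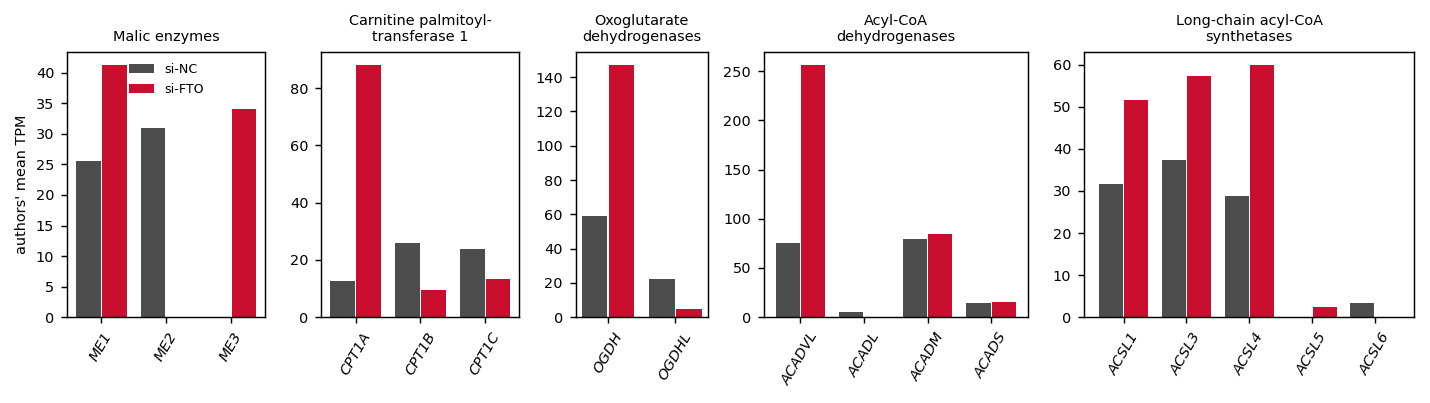
Authors' mean TPM in si-NC (grey) and si-FTO (red) of the genes of 5 isozyme families, each panel with its own axis from 0. ME2, ACADL and ACSL6 are listed at 0 in si-FTO, and CPT1A goes from 12.5 to 88.2 TPM while CPT1B goes from 25.8 to 9.55 TPM.

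Acyl-CoA dehydrogenases take the first step of each round of oxidation and are specialised by chain length. ACADVL, the very-long-chain enzyme (ENSG00000072778, at chr17:7120444-7128585 on the plus strand of GRCh37), had 75.1 TPM in si-NC against 257 TPM in si-FTO, 3.42-fold higher. Its log2 ratio was 1.76, which 14.5% of the genes with at least 10 TPM matched or passed in size, and the median of its 50 neighbours was -0.06. ACADM, the medium-chain enzyme, had 79.2 and 84.1 TPM (0.08). ACADS, the short-chain enzyme, had 14.4 and 15.6 TPM (0.11).

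Of these 3 members, ACADVL alone was past 1.5-fold. ACAD9, a related dehydrogenase outside the members that also helps to assemble respiratory complex I, had 60.9 TPM in si-NC against 101 TPM in si-FTO. ACADL, the long-chain enzyme outside the members, had 5.26 TPM in si-NC and was listed at 0 in si-FTO. Of the summed TPM of ACADVL, ACADL, ACADM and ACADS, ACADVL made up 43.2% in si-NC against 72.0% in si-FTO, and ACADM 45.5% and 23.6%.

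The next steps for long chains are carried out by the mitochondrial trifunctional protein, whose alpha subunit is HADHA and whose beta subunit is HADHB. HADHA had 207 TPM in si-NC against 304 TPM in si-FTO (log2 ratio 0.55). HADHB had 146 and 180.4 TPM (0.30). Both subunits were higher in si-FTO, and their ratio was 1.41 in si-NC against 1.68 in si-FTO. The genes lie head to head on chromosome 2 with 306 bases between their first transcribed bases in the RefSeq table, and in the GRCh37 annotation they overlap by 1503 bases on opposite strands.

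Shorter chains are processed by separate hydratases, dehydrogenases and thiolases. ECHS1, the short-chain enoyl-CoA hydratase, had 194 TPM in si-NC against 238 TPM in si-FTO (log2 ratio 0.29). HADH, the 3-hydroxyacyl-CoA dehydrogenase, had 70.5 and 78.8 TPM (0.16). ACAA2, the thiolase of the matrix, had 75.6 and 110.4 TPM (0.54). Each was higher in si-FTO, by less than 1.5-fold on the deposited scale, and the 50 neighbours of ACAA2 had a median log2 ratio of -0.74.

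Unsaturated fatty acids need auxiliary enzymes that move or reduce their double bonds. DECR1, the 2,4-dienoyl-CoA reductase of the matrix, had 21.3 TPM in si-NC against 35.5 TPM in si-FTO (log2 ratio 0.71). ECI1, an enoyl-CoA isomerase, had 105 and 89.5 TPM (-0.22, and -0.01 after scaling). ECI2, the second isomerase, had 117 and 125 TPM (0.10). Of these auxiliary enzymes, only the reductase was past 1.5-fold.

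Electrons from acyl-CoA dehydrogenases pass through the electron transfer flavoprotein, a dimer of ETFA and ETFB, to the ubiquinone oxidoreductase ETFDH. ETFA had 214 TPM in si-NC against 188 TPM in si-FTO (log2 ratio -0.19, and 0.02 after scaling). ETFB had 97.7 and 131 TPM (0.42). ETFDH had 23.7 and 13.1 TPM (-0.81), 1.80-fold lower. ETFDH was the only fatty acid oxidation member lower by 1.5-fold, with and without scaling.

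The dimer's subunits came closer to each other, with a ratio of ETFA to ETFB of 2.19 in si-NC against 1.43 in si-FTO. ETFDH was the scarcest of the electron transfer genes in each group. It overlaps PPID, a cyclophilin gene on the opposite strand, by 1616 bases, and PPID had 71.4 TPM in si-NC against 36.7 TPM in si-FTO. The 50 neighbours of ETFDH had a median log2 ratio of -0.52.

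Overlaps of this kind touch many members. Of the 37, 19 overlap another protein-coding gene in the annotation, 14 of them only on the opposite strand. The library kit keeps the strand, but whether the counting used it is not given in the sources used here, and without it reads of such partners cannot be told apart. DLD overlaps LAMB1, a laminin gene, by 7932 bases, and LAMB1 had 54.9 TPM in si-NC against 166 TPM in si-FTO. ACADVL overlaps DLG4, a scaffold gene of synapses, by 2717 bases, and DLG4 had 10.6 and 16.7 TPM, far below ACADVL. Other partners were well above their member. ACSL5, at 0.114 and 2.30 TPM, overlaps ZDHHC6 by 3952 bases, and ZDHHC6 had 58.1 and 51.3 TPM. IDH3G overlaps SSR4 by 997 bases, and SSR4 had 335 and 311 TPM. ACADM overlaps RABGGTB, at 146 and 136 TPM, by 1379 bases on the same strand, where the strand does not separate reads.

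The other genes of the TCA cycle and its entry points were taken as a list of 24. Of these, 3 were lower by 2-fold and 3 higher, and 7 lower by 1.5-fold and 5 higher, with a median log2 ratio of -0.29 (-0.08 after scaling). In shares, 12.5% were lower and 12.5% higher by 2-fold, against 17% and 11.4% of all genes compared, and 29.2% lower and 20.8% higher by 1.5-fold, against 31.2% and 18.8%. The list thus lay near the background, which is also that of the lists that follow. After scaling, 3 were lower and 4 higher by 2-fold. PC, pyruvate carboxylase, which makes oxaloacetate from pyruvate, had 28.4 TPM in si-NC against 197 TPM in si-FTO, 6.94-fold higher. NNT, the transhydrogenase that makes NADPH in mitochondria, had 41.9 and 107 TPM. ME3 was the highest of the list, with a log2 ratio of 5.05.

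Lower by 2-fold with 1 TPM added, besides OGDHL, were a carrier of pyruvate and a glutaminase, with GLUD2 just within that limit. MPC1, a subunit of the mitochondrial pyruvate carrier, had 86.8 TPM in si-NC against 27.6 TPM in si-FTO, 3.15-fold lower. GLS2, the liver-type glutaminase, had 3.98 and 0.0605 TPM and the lowest log2 ratio of the list, -2.23.

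Succinate dehydrogenase, which is both a cycle enzyme and a respiratory complex, was also looked at, after its values were seen. SDHA, its flavoprotein, had 165 TPM in si-NC against 293 TPM in si-FTO, 1.77-fold higher. SDHB, the iron-sulfur subunit, had 262 and 206 TPM. SDHC and SDHD, the membrane anchors, had 73.6 and 72.9 TPM and 156 and 109 TPM. SDHA was thus past 1.5-fold and the other subunits were within it.

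Other fatty acid oxidation genes were taken as a list of 30. Of these, 6 were lower by 2-fold and 2 higher, and 12 lower by 1.5-fold and 6 higher, with a median log2 ratio of -0.33 (-0.13 after scaling). After scaling, 5 were lower and 4 higher by 2-fold, ACOX3 being the one that came within it, and 10 lower and 7 higher by 1.5-fold. The list held more lower than higher genes, as did the genes compared as a whole, with 20% lower and 6.67% higher by 2-fold and 40% and 20% by 1.5-fold. ECH1, an isomerase of dienoyl-CoA, was the highest with a log2 ratio of 1.34, from 71.7 TPM in si-NC to 184 TPM in si-FTO. DECR2, the peroxisomal dienoyl-CoA reductase, had 15.9 and 37.7 TPM. ACADL had the lowest log2 ratio, -2.65.

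The other genes lower by 2-fold in this list were mostly dehydrogenases and oxidases of acyl-CoA. ACADSB, which oxidises short branched acyl-CoA, had 17.1 TPM in si-NC against 5.46 TPM in si-FTO. ACAD11, an acyl-CoA dehydrogenase, had 30.2 and 12.2 TPM. ACOX3, a peroxisomal oxidase of branched acyl-CoA, had 12.6 and 5.15 TPM. CPT1B and ACSL6, described above with their families, complete the 6 together with ACADL.

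Supply of fatty acids was described by 24 genes of uptake, storage and release, of which 21 were compared. By 2-fold, 4 were lower and 6 higher, and by 1.5-fold 6 were lower and 7 higher, with a median log2 ratio of -0.21 (-0.02 after scaling). After scaling, 2 were lower and 6 higher by 2-fold, since FABP5 and SLC27A4 came within that limit at -0.81 and -0.80. In shares, 19.0% were lower and 28.6% higher by 2-fold, and 28.6% and 33.3% by 1.5-fold, so the higher genes exceeded the background and the lower ones lay near it. FABP3, a cytosolic fatty acid binding protein, had 1.80 TPM in si-NC against 73.7 TPM in si-FTO and the highest log2 ratio of the list, 4.74. FABP5, the epidermal form, went from 148 to 72.3 TPM. These 2 binding proteins differed in opposite directions and were at similar levels in si-FTO.

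Of the fatty acid transporters, those past 2-fold with at least 10 TPM were SLC27A2 and SLC27A4. SLC27A2, an acyl-CoA synthetase and transporter of very long chains, had 9.48 TPM in si-NC against 39.9 TPM in si-FTO. SLC27A4, of the same family, had 75.2 and 36.9 TPM. Both were near 40 TPM in si-FTO.

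Among genes of lipid release and storage, those past 2-fold with at least 10 TPM were higher in si-FTO. MGLL, the monoacylglycerol lipase, had 2.92 TPM in si-NC against 21.9 TPM in si-FTO. LIPE, the hormone-sensitive lipase, had 4.78 and 18.5 TPM. PLIN3, a coat protein of lipid droplets, had 43.0 and 93.4 TPM. G0S2, an inhibitor of triglyceride lipolysis, had 5.90 TPM in si-NC and was listed at 0 in si-FTO.

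Among 26 regulators of fuel oxidation, 2 were lower by 2-fold and 4 higher, and 7 lower by 1.5-fold and 7 higher, all with 1 TPM added, with a median log2 ratio of -0.00 (0.17 after scaling). After scaling, 2 were lower and 5 higher by 2-fold. In shares, 7.69% were lower and 15.4% higher by 2-fold, against 17% and 11.4% of all genes compared. By 1.5-fold, 26.9% were lower and 26.9% higher, against 31.2% and 18.8%. The list thus held smaller shares of lower genes and larger shares of higher genes than the background. PPARGC1A, a coactivator of mitochondrial genes, had 3.02 TPM in si-NC against 13.9 TPM in si-FTO. PPARGC1B, its paralog, had 20.7 and 4.28 TPM. These 2 coactivators differed in opposite directions.

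The estrogen-related receptors, partners of these coactivators, also parted. ESRRA had 38.3 TPM in si-NC against 83.4 TPM in si-FTO. ESRRG had 5.13 TPM in si-NC and was listed at 0 in si-FTO, with the lowest log2 ratio of the list, -2.62. PDK4, a kinase that shuts the pyruvate dehydrogenase complex, had the highest at 2.21, from 2.23 to 14.0 TPM. PRKAA1, a catalytic subunit of AMP-activated kinase, had 27.8 and 86.9 TPM.

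Lists of neighbouring pathways came next. Of 17 glycolytic genes, 1 was lower by 2-fold and 0 higher, and 1 lower by 1.5-fold and 5 higher, with a median log2 ratio of 0.07 (0.28 after scaling). HK1, the hexokinase bound to mitochondria, was the lowest with 98.9 TPM in si-NC against 48.8 TPM in si-FTO, and PFKP, the platelet form of phosphofructokinase, the highest with 113 and 221 TPM. After scaling, 0 of the 17 were lower by 2-fold and 4 higher, PFKP among them, and 1 was lower and 6 higher by 1.5-fold. In shares as deposited, 5.88% were lower and 0% higher by 2-fold, against 17% and 11.4% of all genes compared. By 1.5-fold, 5.88% were lower and 29.4% higher, against 31.2% and 18.8%. By 1.5-fold the glycolytic genes thus lay on the same side of the background as the members.

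Of 13 fatty acid synthesis genes, 0 passed 2-fold, and 3 were lower and 3 higher by 1.5-fold, with a median log2 ratio of 0.03 (0.24 after scaling). After scaling, FASN was higher by 2-fold. In shares, 23.1% were lower and 23.1% higher by 1.5-fold, against 31.2% and 18.8% of all genes compared. FASN, the fatty acid synthase, had the highest log2 ratio at 0.94, from 292 TPM in si-NC to 559 TPM in si-FTO. MCAT, the malonyltransferase of the mitochondrial pathway, had the lowest at -0.96, from 49.9 to 25.2 TPM.

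The 31 nuclear genes for subunits of respiratory complexes III to V lay closest together. None passed 2-fold, against 17% lower and 11.4% higher of all genes compared. By 1.5-fold, 0 were lower and 2 higher (6.45%), against 31.2% and 18.8%. The median log2 ratio of the list was -0.01 (0.20 after scaling). COX7B, of cytochrome c oxidase, was the highest at 0.78, from 143 TPM in si-NC to 247 TPM in si-FTO. ATP5PO, of ATP synthase, was the lowest at -0.51, from 314 to 221 TPM. The members spanned a wider range, from -5.00 for ME2 to 2.72 for CPT1A.

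**Figure D5:**
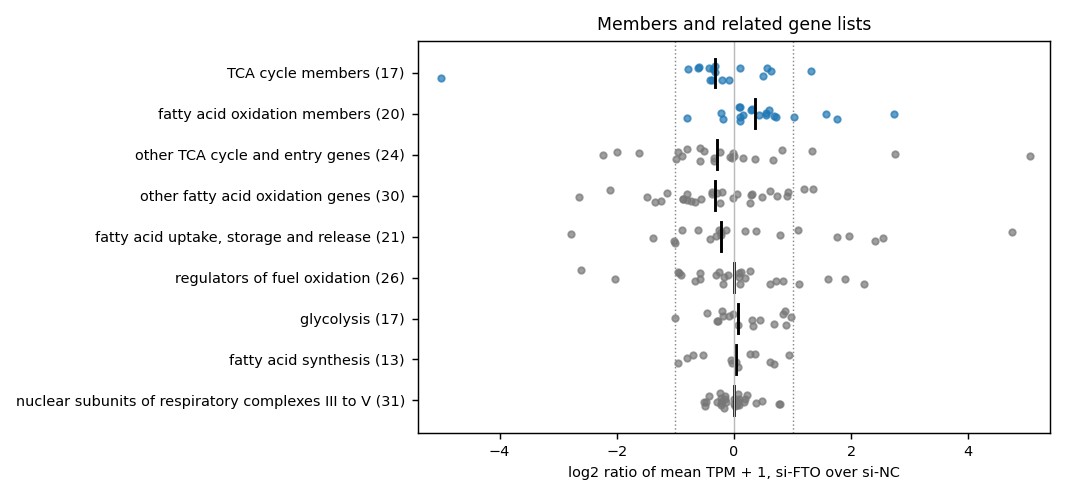
Log2 ratio of mean TPM plus 1 in si-FTO over si-NC for the members (blue) and for 7 lists of related genes (grey), with 1 point per gene compared, a black bar at each median and dotted lines at 2-fold; vertical scatter within a row only separates the points. Medians run from -0.33 for the other fatty acid oxidation genes to 0.36 for the fatty acid oxidation members.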

How the data were processed

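Total RNA of AGS cells was sequenced from 3 si-NC and 3 si-FTO libraries made with a stranded kit. According to the study's methods, Bowtie was used for mapping to hg19 and RSEM for quantification, whereas the submitters' processing notes name HISAT2 and hg19. The deposited values used are TPM, averaged by the authors over each group, for 58174 Ensembl genes, with 0.0001 in place of 0 and read here as 0. The columns of the authors' own comparison (a log2 fold change with its p-value and q-value) and a second table of genes chosen by it were not used. A limma fit over libraries was planned in case of per-library columns. The tables hold group means, so log2 ratios were computed with a pseudocount of 1 for genes that reached 0.5 TPM in a group. Calls were made at 2-fold and 1.5-fold.

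Alternative settings were median-ratio scaling, quantile normalization, a pseudocount of 0.1, a minimum of 5 TPM, no minimum, 0.0001 kept, and sums without the most abundant member. Symbols came from a separate list of gene names and positions from the GENCODE annotation lifted to GRCh37, and each matched 55726 identifiers. Promoter windows came from RefSeq on GRCh38.p14. The builds were not mixed. All members were named, with FTO first and, of each list, the members with the largest ratio in each direction and those past 2-fold with at least 10 TPM in a group. Markers were named as far as they describe the label. The neighbours of ME2, the overlapping partners, the isozyme families, ACAD9, SDHA, SDHB, SDHC and SDHD were picked with their values in view. A gene of 1 list is not reported here. The members and lists were chosen with earlier results of these data known. Calculations used Python 3.11.15, numpy 2.4.6, pandas 2.3.3 and matplotlib 3.10.9. They were tested on simulated data, where 200 of 200 genes with 4-fold changes were recovered among 18683 genes and 0 unchanged genes were called. The simulation varied the si-NC means by noise far smaller than 2-fold and changed only genes with at least 10 TPM. Its outcome was thus fixed in advance, so it checks the calculation and gives no error rate for these data.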

Additional observations from a re-analysis of the deposited data

How the results depend on the processing

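No paired analysis was possible because replicate numbers are lost in the group means, and for the same reason leaving out each library and the fit with a replicate block were not run. With median-ratio scaling, the members lower by 1.5-fold numbered 2 in place of 5 and those higher 14 in place of 9 (the scaling moves ratios up by construction, except that of a gene at 0 in si-FTO such as ME2). Quantile normalization put CS at 0.56, within 1.5-fold, and left 8 members higher by that limit. The pathway medians kept their sign under the 6 alternatives run for them, and the summed levels under the 3 run for them, though the log2 ratio of the TCA cycle sums came to -0.02 with median-ratio scaling. The 2-fold counts stayed the same under their 6 alternatives but for 4 in place of 5 members higher by 2-fold at a minimum of 5 TPM, where ACSL5 is left out. The median log2 ratio ranged from -0.37 to -0.11 for the TCA cycle members and from 0.30 to 0.57 for the fatty acid oxidation members. A pseudocount of 0.1 moved 2 members, ME2 to -8.28 and ACSL5 to 3.49, and 3 members changed sign under median-ratio scaling, all of them within 1.5-fold. TPM keeps no depth, so counting error is unknown. A value listed at 0 can be a failed estimate. Group means carry no spread between libraries, and the authors' own tests were not used here, so no difference was set against that spread.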
